A study of Mus musculus with 8 samples.

Results

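The genes described here encode the proteins of the cytosolic ribosome and were measured in mouse blood stem cells with and without the ubiquitin ligase Huwe1. They were chosen by name: the gene symbols built as Rpl or Rps plus a number, and Rplp0, Rplp1, Rplp2 and Rpsa, provided that at least 3 libraries held 10 or more reads. The naming rule matched 84 of the 23358 genes in the count table and 81 of them met the read minimum. These 81 comprised 42 genes of the large (60S) subunit, 31 of the small (40S) subunit, the 3 genes of the P-stalk and 5 paralog copies, namely Rpl7l1, Rpl22l1, Rpl39l, Rps27l and Rps4y2. RefSeq lists Rps4y2 as Rps4l, a transcribed pseudogene, so its reads come from an RNA with no annotated coding sequence. The 3 symbols left out were Rpl26 and Rpl10l, with 0 reads in every library, and Rpl3l, whose third-highest count was 2. Just inside the minimum lay Rpl30, with a third-highest count of 14, and Rpl39l, with 19.

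Bulk RNA sequencing was done on haematopoietic stem cells sorted from bone marrow as Lin-Sca+Kit+CD48-CD150+ and lysed without culture. There were 3 wild type libraries, 3 from Huwe1 knockouts made with Mx1-Cre and 2 from Huwe1 knockouts made with Vav-Cre. Mx1-Cre is switched on by an inducing agent and Vav-Cre acts constitutively throughout the blood lineage, so the lines differ in when the gene is lost. The labels name no Cre, floxed allele or induction for the wild type cells, give no ages or strain, and do not say whether each library is a separate animal, so p-values measure the spread between these libraries only.

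The libraries held 28689765 to 33202926 gene-assigned reads and 14601 to 15554 detected genes. Huwe1 itself stood at 398 to 434 CPM (read counts scaled to library depth) in wild type, 399 to 444 with Mx1-Cre and 445 to 490 with Vav-Cre. The count over the whole gene overlapped between wild type and Mx1-Cre and lay above wild type in both Vav-Cre libraries. It did not show the loss of Huwe1, so each group is named by its label. Of the marker genes of the stem cell gate, Kit stood at 956 to 2251 CPM and Ly6a (Sca) at 40.7 to 148. Slamf1, which encodes CD150, stood at 47.8 to 110, whereas Cd48 lay between 15.1 and 21.9. With no ungated cells among the libraries, these levels cannot show the gate by themselves. The ranges of other cell markers differed between groups. The 9 neutrophil and monocyte genes, all detected, summed to 852 to 1416 CPM in wild type, 207 to 590 with Mx1-Cre and 89.0 to 386 with Vav-Cre. The 6 erythroid genes, of which 3 were at 0 everywhere, summed to 66.1 to 148, 93.9 to 221 and 4.95 to 31.0 in the same order. The 5 megakaryocyte and platelet genes summed to 507 to 733, 454 to 667 and 263 to 439, and the 6 T and NK cell genes to 106 to 171, 86.0 to 119 and 53.0 to 92.3. The 5 mast cell and basophil genes summed to 339 to 427, 386 to 593 and 472 to 967. The 5 B cell genes summed to 65.0 to 84.9, 51.2 to 60.6 and 36.3 to 71.4, and the 6 genes of stroma and endothelium to 57.8 to 85.2, 37.4 to 57.4 and 56.4 to 75.9. The 8 proliferation genes summed to 2604 to 2632, 3313 to 3850 and 1771 to 3211. The part of these cells in the results below was not tested, and in bulk RNA a smaller number of cells of a type cannot be told apart from less RNA per cell.

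A ribosome carries a single copy of nearly every one of these proteins, so their production has to be matched across many scattered genes. Most ribosomal protein mRNAs begin with a cytosine followed by an unbroken run of pyrimidines, the 5′ terminal oligopyrimidine (TOP) tract, through which mTOR signalling and the RNA-binding protein LARP1 set their translation together. Blood formation is sensitive to their supply: loss of 1 allele of several of them causes Diamond-Blackfan anaemia, and unassembled RPL5 and RPL11 bind MDM2 and raise p53. Haematopoietic stem cells are known for a low rate of protein synthesis.

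RefSeq start sites on the GRCm38.p6 assembly were available for 60 of the 81 genes. The 45 bases around the start, 30 before it and 15 from it on, are printed for 6 genes, chosen among the 13 of these 60 in which a tract was found at the annotated start; capitals mark the pyrimidine run that begins with a cytosine at the annotated start. Rps6 is shown because it was lower in every knockout library than in every wild type library and Rps18 because it varied within groups, while the other 4 represent both subunits. The windows are chr4:86857353-86857397 on the minus strand for Rps6, chr17:33955651-33955695 (minus) for Rps18, chr17:27635230-27635274 (minus) for Rps10, chr7:4792935-4792979 (plus) for Rpl28, chr11:114668550-114668594 (plus) for Rpl38 and chr14:18270972-18271016 (minus) for Rpl15.
Rps6: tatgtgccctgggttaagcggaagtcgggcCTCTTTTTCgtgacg
Rps18: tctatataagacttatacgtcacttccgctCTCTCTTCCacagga
Rps10: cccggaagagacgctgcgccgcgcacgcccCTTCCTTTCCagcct
Rpl28: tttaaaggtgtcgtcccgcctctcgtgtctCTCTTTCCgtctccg
Rpl38: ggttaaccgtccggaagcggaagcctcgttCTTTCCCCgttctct
Rpl15: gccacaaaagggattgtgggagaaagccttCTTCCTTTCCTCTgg

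A run of at least 5 pyrimidines from a cytosine at the annotated start was found in 13 of the 60 genes (21.67%), against 3.008% of the 27025 genes in the promoter table. Within the window from 250 bases before to 50 after the start, read on both strands, CTCTTTC occurred in 28.33% of the 60 and 9.284% of all genes. CTTCCTTT, which shares letters with that motif, occurred in 13.33% and 3.915%. CCGGAAG, the core bound by ETS-family factors, occurred in 41.67% and 9.928%. TATAAA occurred in 11.67% and 15.67%, and GCCATCTTG, the core bound by YY1, in 1.667% and 1.425%. These are matches of letters in an annotated window, and a start annotated a few bases off would hide a tract.

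A second set of sequences shows how much of a member's sequence other genes hold. Ribosomal protein mRNAs have left many retrotransposed copies in the mouse genome, and a read shared by several copies cannot be placed by its sequence. For each gene, every 50-base window of its coding sequence was compared with all annotated transcripts of other genes. The first 50 coding bases are printed for 6 genes, with the start codon in capitals. For Rpl29 those bases recur exactly in 18 other annotated genes, for Rps23 in 8, for Rpl30 in 3 and for Rpl22l1 in 1, whereas those of Rpl4 and Rps3 recur in 0.
Rpl29: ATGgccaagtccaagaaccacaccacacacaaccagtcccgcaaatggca
Rps23: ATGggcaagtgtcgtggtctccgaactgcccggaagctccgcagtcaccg
Rpl30: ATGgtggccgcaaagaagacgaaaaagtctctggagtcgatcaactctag
Rpl22l1: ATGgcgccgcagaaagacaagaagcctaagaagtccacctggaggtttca
Rpl4: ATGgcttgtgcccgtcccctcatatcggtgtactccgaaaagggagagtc
Rps3: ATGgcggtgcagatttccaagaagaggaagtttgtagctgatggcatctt

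Although the ribosome holds these proteins in nearly equal numbers, the measured level of their mRNAs spanned a 9959-fold range of mean CPM. The highest mean was that of Rpl4, a large-subunit protein lining the exit tunnel, at 2660 ± 182 CPM in wild type (SD, n = 3), followed by Rps3, a small-subunit protein at the mRNA entry channel, at 1815 ± 257, and Rplp0, the base of the P-stalk, at 1542 ± 221. The lowest was Rpl30, at 6 to 24 reads per library. The 10 most abundant genes held 61.7% of all reads on the 81, and 15 genes lay below 10 CPM in wild type. Per kilobase of coding sequence, the level went with the share of windows found in no other annotated gene. The median was 28.9 CPM per kb for the 29 genes with 0% unique windows and 205 for the 29 genes with more than 0% but under 20%. It was 660 for the 9 genes from 20% to under 50% and 1221 for the 13 genes with 50% or more. The rank correlation between level and unique share was 0.62 over 80 genes, given as a description across genes that share libraries and gene structure. How reads with several placements were counted is not given in the sources used here, and its part in these levels was not tested. Levels of different genes are therefore given only as counted, and the comparisons below set each gene against itself between libraries.

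**Figure D1:**
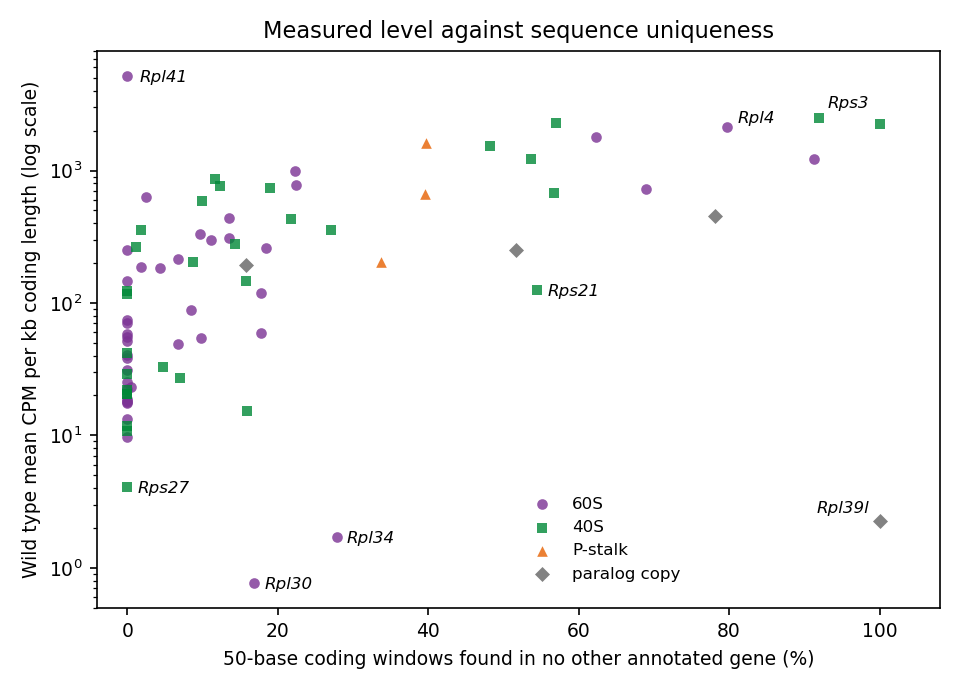
Wild type mean level (CPM per kb of coding sequence, log scale) of 80 ribosomal protein genes against the percentage of their 50-base coding windows found in no other annotated gene; symbols mark the subunit or class. Genes with 0% unique windows have a median of 28.9 CPM per kb and genes with 50% or more a median of 1221, while Rpl41 is high with 0% and Rpl39l low with 100% unique windows.

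The annotated copies of some genes were counted in the same table. Gm5148, which holds 91.84% of the Rps23 windows, had 3374 to 6142 reads per library, from 14 to 21 times the reads of Rps23 itself. BC004004, which holds 53.6% of the Rpl21 windows, had 2197 to 3368 reads, between 7.10 and 11.7 times those of Rpl21. Gm15421, with 81.39% of the Rpl22l1 windows, had 1.36 to 1.6 times the reads of Rpl22l1. The copies Gm15772 of Rpl26 and Gm12191 of Rpl30 were at 0 in every library, so the low counts of Rpl26 and Rpl30 were not matched by reads on these copies. Of the other annotated genes holding 20% or more of the windows, 4 for Rpl26 and 10 for Rpl30, the count table held only these copies. These copies lie outside the naming rule and were singled out after their values were seen.

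No ribosomal protein gene passed an adjusted p of 0.05 in any of the 4 comparisons made (edgeR quasi-likelihood test, Benjamini-Hochberg adjustment over 14086 genes). With the knockout lines averaged against wild type, 0 of 81 were called, where 2.65% of all tested genes were called. The count was 0 of 81 against a background of 2.49% for Mx1-Cre, 0 of 81 against 0.511% for Vav-Cre, and 0 of 81 against 0.17% for the difference between the lines. At an unadjusted p under 0.05 there were 3 genes in the averaged comparison (16.5% of all tested genes), 2 for Mx1-Cre (16.6%), 2 for Vav-Cre (13.4%) and 4 for the difference between lines (13.3%). DESeq2 called 1 gene, Rpl3 in Vav-Cre. Limma-voom with quality weights called 1 in the averaged comparison and 4 in Mx1-Cre, of which Rpl22l1, Rps3a and Rps6 are described below. The shares above are for edgeR, and the share of all tested genes called by DESeq2 or limma-voom is not given here. Both knockout comparisons use the same 3 wild type libraries.

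The family's median log2 fold change was -0.05 with the lines averaged, -0.10 for Mx1-Cre and -0.01 for Vav-Cre, where the medians of all tested genes were 0.00, 0.01 and -0.01. Of the 81 genes, 53 lay below 0 in the averaged comparison, 59 in Mx1-Cre and 43 in Vav-Cre. Of all 14086 tested genes, 7037, 6864 and 7181 did in the same order. The sign of the family median depended on single libraries. In the averaged comparison it was 0.02 without wild type library 2, 0.05 without wild type library 3 and 0.01 without Mx1-Cre library 2. In Mx1-Cre it was 0.00 without wild type library 3 and 0.02 without Mx1-Cre library 2. In Vav-Cre it was 0.05 without wild type library 2, 0.07 without wild type library 3 and 0.02 without Vav-Cre library 1. The difference Vav-Cre minus Mx1-Cre had a median of 0.09, and -0.04 without Mx1-Cre library 2. The data bounded most single genes: the 95% interval of the fold change stayed inside 2-fold in either direction for 73 of 81 genes with the lines averaged, 71 in Mx1-Cre and 69 in Vav-Cre. Over all tested genes the share was 66.7%, 62.1% and 59.5% in the same order.

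Medians lay near 0 for both subunits. In the averaged comparison the median log2 fold change was -0.04 over the 42 large-subunit genes, -0.08 over the 31 small-subunit genes and -0.16 over the 3 P-stalk genes. The large-minus-small difference of the per-library medians was 0.04, -0.03 and -0.01 in wild type, 0.08, 0.13 and 0.01 with Mx1-Cre and 0.05 and 0.01 with Vav-Cre, so the knockout values overlapped the wild type values. In the averaged comparison 53 of the 81 members and 7037 of 14086 tested genes lay below 0, and 2.65% of tested genes were called. The 17 measured genes mutated in Diamond-Blackfan anaemia had a median of -0.11, with 14 below 0 and 0 called. Among them Rps19, the gene most often mutated in that disease, stood at 322 ± 52.0 CPM in wild type (SD, n = 3), 311 ± 40.8 in Mx1-Cre (n = 3) and 337 ± 10.7 in Vav-Cre (n = 2), a log2 fold change of 0.01 ± 0.14 (SE). Its 95% interval ran from -0.30 to 0.31. Rps14, whose loss underlies the anaemia of the 5q- syndrome, had 541, 785 and 746 CPM in wild type, 567, 527 and 739 with Mx1-Cre and 706 and 750 with Vav-Cre, and the groups overlapped. Rps26, which contacts the mRNA near its exit channel, differed by 0.06 ± 0.18.

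**Figure D2:**
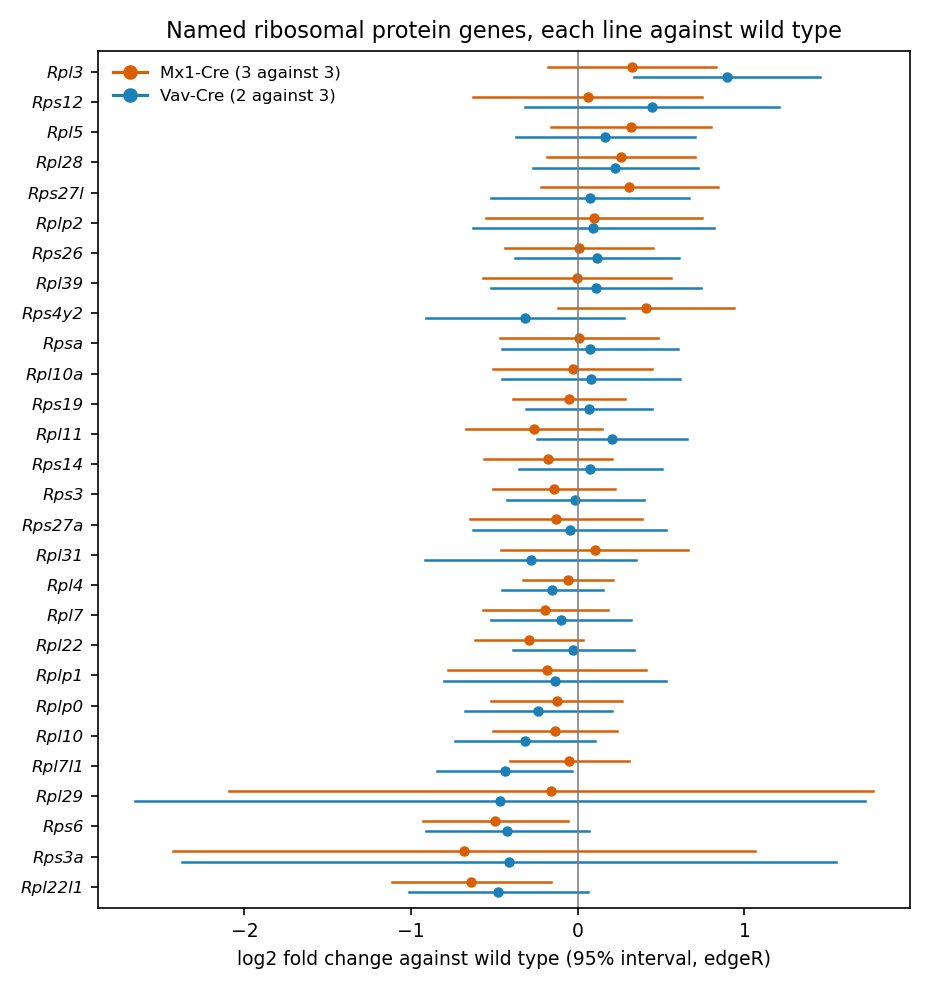
Log2 fold change against wild type with its 95% interval (edgeR) for the named genes with a mean log2 CPM of at least 3, for Mx1-Cre (orange) and Vav-Cre (blue), ordered by the average of the lines. Most intervals cross 0, Rpl3 in Vav-Cre lies at 0.90, and Rps3a and Rpl29 have the widest intervals.

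The family varied as a whole between libraries of the same genotype. The 81 genes took 1.68%, 2.25% and 2.19% of all reads in the wild type libraries, 1.56%, 1.50% and 2.20% with Mx1-Cre and 1.87% and 1.99% with Vav-Cre. Wild type library 1 and Mx1-Cre libraries 1 and 2 were low, the other wild type libraries and Mx1-Cre library 3 high, and both Vav-Cre libraries in between, so the groups overlapped. As the median log2 deviation from the wild type mean, the family stood at -0.31, 0.15 and 0.17 in wild type, -0.22, -0.34 and 0.24 with Mx1-Cre and -0.02 and 0.04 with Vav-Cre. The range within wild type was therefore 0.48 and within Mx1-Cre 0.58, against a median knockout effect of -0.05. The genes moved together: 76 of 81 were lower in wild type library 1 than in both other wild type libraries, as were 42.4% of all tested genes. In Mx1-Cre library 3, 73 of 81 were above both other Mx1-Cre libraries (37.3% of tested genes), and 44 had their highest value of all 8 libraries there (18.1%).

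**Figure D3:**
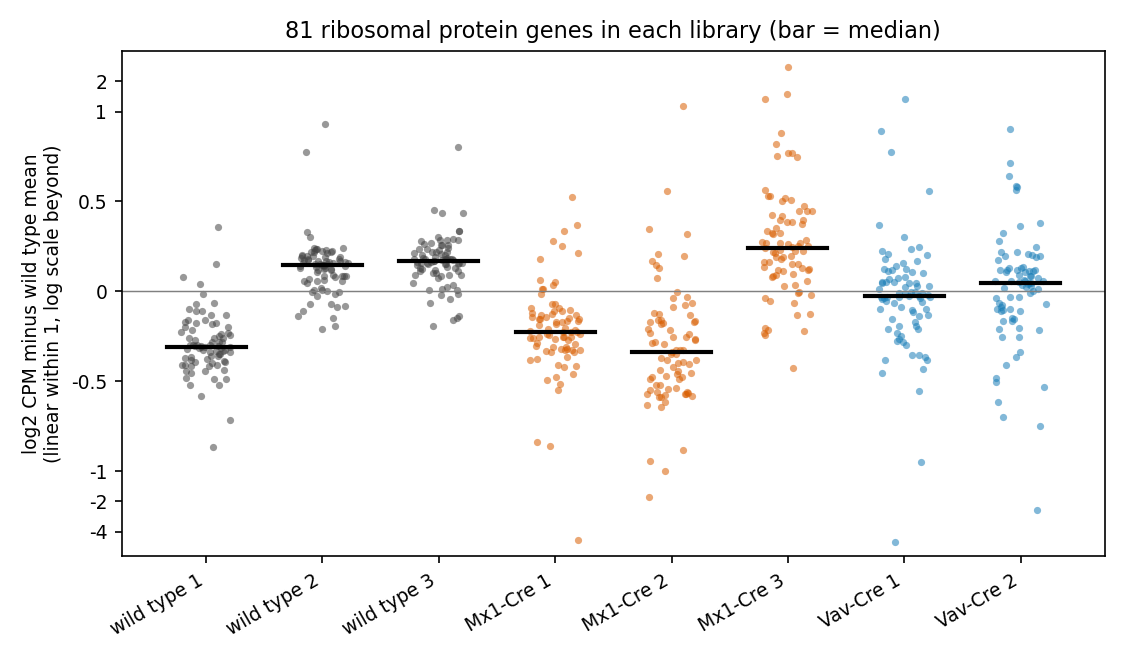
Each point is a ribosomal protein gene in a library, as log2 CPM minus that gene's wild type mean (axis linear within 1 and logarithmic beyond); black bars are medians. The medians of wild type 1, Mx1-Cre 1 and Mx1-Cre 2 lie between -0.22 and -0.34 and those of wild type 2, wild type 3 and Mx1-Cre 3 between 0.15 and 0.24.

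Other gene sets were followed across the same libraries. The 18 other TOP mRNAs, which encode translation factors such as Eef1a1 and Eef2, had medians of -0.18, 0.12 and 0.06 in wild type, -0.00 and -0.21 for Mx1-Cre libraries 1 and 2, 0.27 in Mx1-Cre library 3, and 0.08 and 0.04 with Vav-Cre. The 76 mitochondrial ribosomal protein genes, whose products build a separate ribosome, had -0.17, 0.12 and 0.04 in wild type, -0.04, -0.06 and 0.30 with Mx1-Cre and -0.02 and -0.22 with Vav-Cre. Both sets were thus low in wild type library 1 and high in Mx1-Cre library 3, as the cytosolic ribosomal proteins were. The 42 ribosome biogenesis factors were not: they stood at 0.05, 0.04 and -0.07 in wild type, -0.12, -0.03 and 0.01 with Mx1-Cre and -0.26 and -0.31 with Vav-Cre. Ribosomal protein mRNAs are short, and 2107 tested genes with transcripts under 1 kb, members left out, had medians of -0.09, 0.07 and 0.03 in wild type, -0.04, -0.07 and 0.08 with Mx1-Cre and 0.01 and -0.06 with Vav-Cre. The part of transcript length in the movement of the family was not tested.

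**Figure D4:**
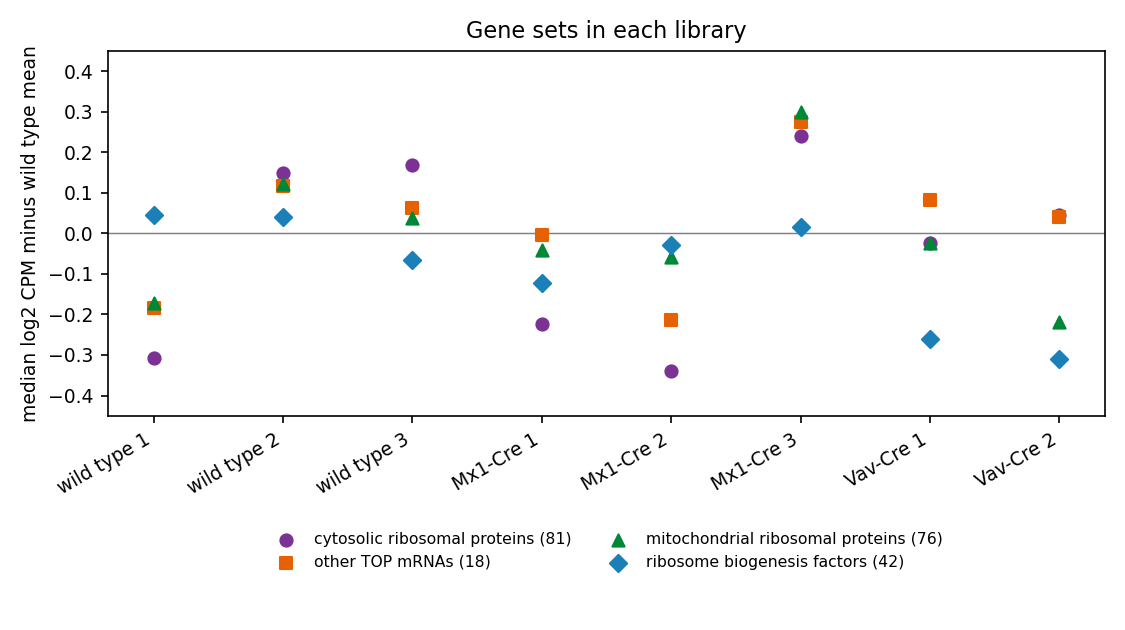
Median log2 CPM minus the wild type mean in each of the 8 libraries for the 81 cytosolic ribosomal protein genes (circles), 18 other TOP mRNAs (squares), 76 mitochondrial ribosomal protein genes (triangles) and 42 ribosome biogenesis factors (diamonds). The first 3 sets are lowest or near lowest in wild type 1 and highest in Mx1-Cre 3 at 0.24 to 0.30, and the biogenesis factors are lowest in the Vav-Cre libraries.

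Single genes departed from the shared movement. Rps6, a small-subunit protein phosphorylated by S6 kinase downstream of mTOR, had 76.8, 90.1 and 93.4 CPM in wild type, 67.1, 42.9 and 74.6 with Mx1-Cre and 67.5 and 61.8 with Vav-Cre. All 5 knockout libraries lay below all 3 wild type libraries, the only member of which that was true, while 7.28% of all tested genes had this lower pattern, and 0 members had the higher pattern, shown by 4.41% of tested genes. The log2 fold change was -0.46 ± 0.17 with the lines averaged (95% interval -0.85 to -0.07, adjusted p = 0.217, edgeR), -0.50 ± 0.20 in Mx1-Cre and -0.42 ± 0.22 in Vav-Cre. limma-voom gave an adjusted p of 0.0458 in Mx1-Cre, and over the alternatives of the averaged value it ran from 0.0907 to 0.538. All of the 50-base windows of Rps6 recur in other annotated genes, and its level is uncertain for that reason.

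Rpl22l1, the paralog of the large-subunit protein Rpl22, had 54.6, 77.4 and 81.5 CPM in wild type, 39.1, 37.9 and 60.1 with Mx1-Cre and 53.8 and 48.4 with Vav-Cre. The Vav-Cre libraries lay below all wild type libraries and Mx1-Cre library 3 lay within their range. Its log2 fold change was -0.56 ± 0.19 with the lines averaged (adjusted p = 0.174, edgeR), -0.64 ± 0.22 in Mx1-Cre (0.162) and -0.48 ± 0.24 in Vav-Cre (0.428). limma-voom called it in the averaged comparison (adjusted p = 0.0395) and in Mx1-Cre (0.00959). The copy Gm15421 had a similar pattern, with 2531, 3518 and 4085 reads in wild type, 2021, 1575 and 2712 with Mx1-Cre and 2198 and 2124 with Vav-Cre, and a log2 fold change of -0.60 ± 0.19 (adjusted p = 0.150, edgeR). The pair shares most of its sequence, so these are not separate measurements. Rpl22, which binds RNA and is known for a role in lymphoid development, had 252, 300 and 277 CPM in wild type, 243, 184 and 252 with Mx1-Cre and 281 and 262 with Vav-Cre, with 68.96% unique windows. Its Mx1-Cre libraries all lay below wild type, though Mx1-Cre library 3 (252.06 CPM) and wild type library 1 (252.21) were nearly equal. The log2 fold change of Rpl22 in Mx1-Cre was -0.29 ± 0.15 (adjusted p = 0.359, edgeR).

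Rpl3, a protein close to the peptidyl transferase centre of the large subunit, had 210, 230 and 223 CPM in wild type, 205, 220 and 407 with Mx1-Cre and 410 and 414 with Vav-Cre. The values fell into 5 libraries at 205 to 230 and 3 at 407 to 414, and the split did not follow the genotype, since Mx1-Cre library 3 stood with the Vav-Cre libraries. The log2 fold change was 0.90 ± 0.25 in Vav-Cre (95% interval 0.34 to 1.45, adjusted p = 0.151, edgeR), 0.33 ± 0.23 in Mx1-Cre and 0.61 ± 0.21 with the lines averaged (adjusted p = 0.174). In Vav-Cre the call changed with the fit: DESeq2 gave an adjusted p of 0.0206, the fit to wild type and Vav-Cre alone gave 0.0213 and the fit without Mx1-Cre library 3 gave 0.0193. Without Mx1-Cre library 3 the Mx1-Cre value was -0.06. Only 4.31% of the Rpl3 windows are unique.

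Rps18, a small-subunit head protein, was high in the library numbered 2 of each group. It had 215, 552 and 283 CPM in wild type, 221, 411 and 272 with Mx1-Cre and 250 and 485 with Vav-Cre, so the groups overlapped. The labels do not say what the replicate numbers stand for, and Rps18 was singled out after its values were seen. Its log2 fold change with the lines averaged was -0.07 ± 0.33, and 12.3% of its windows are unique.

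Rps3a and Rpl29 each had a single library far from the rest. Only 11.7% of the Rps3a windows and 9.7% of the Rpl29 windows are unique. Rps3a, another small-subunit protein, had 23.7 CPM in Mx1-Cre library 1 and 354 in Vav-Cre library 1, against 519 to 745 in the other 6 libraries. Its log2 fold change in Mx1-Cre was -0.68 ± 0.79 (adjusted p = 0.734, edgeR) and -0.12 without library 1. limma-voom, which weights whole libraries, gave -3.36 (adjusted p = 0.0220). Rpl29, a small basic large-subunit protein, had 0.631 CPM in Vav-Cre library 1 and 14.4 to 41.3 in the other 7. Its Vav-Cre value was -0.47 ± 0.99 (adjusted p = 0.900, edgeR), 0.50 without Vav-Cre library 1 and -5.35 without Vav-Cre library 2 (adjusted p = 0.0351), where the lone library is assumed to vary as the other groups do.

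**Figure D5:**
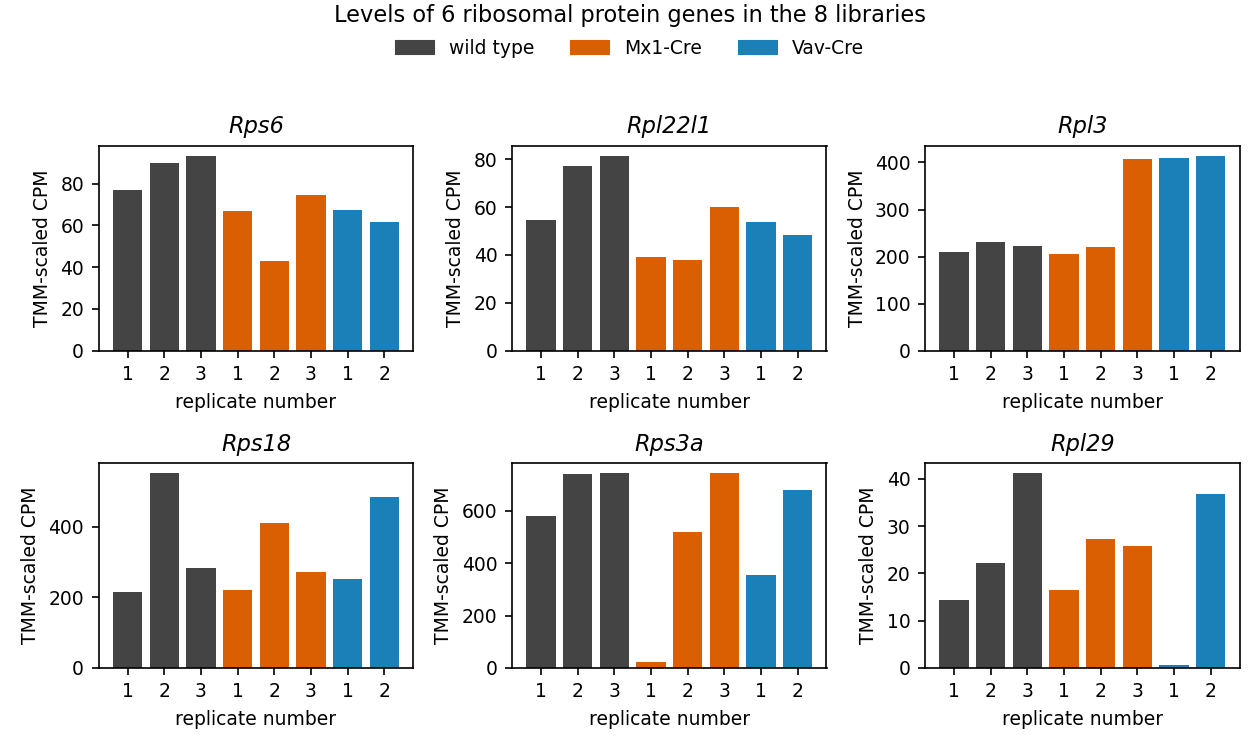
TMM-scaled CPM of Rps6, Rpl22l1, Rpl3, Rps18, Rps3a and Rpl29 in each of the 8 libraries, a bar per library from 0, coloured by group and labelled with the replicate number. Rps6 is below every wild type library in all knockout libraries, Rpl3 is near 410 in 3 libraries, Rps18 is highest in the libraries numbered 2, and Rps3a and Rpl29 each have a library near 0.

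Rpl5 and Rpl11 join the ribosome together with 5S RNA, and their unassembled products act on MDM2. Rpl5 had 20.1, 13.7 and 14.0 CPM in wild type, 19.8, 23.1 and 16.8 with Mx1-Cre and 17.1 and 18.6 with Vav-Cre, a log2 fold change of 0.24 ± 0.20 with overlapping groups. Rpl11 had 30.5, 42.3 and 39.6 CPM in wild type, 29.9, 26.7 and 37.1 with Mx1-Cre and 44.0 and 42.4 with Vav-Cre. Both Vav-Cre libraries lay above all wild type and all Mx1-Cre libraries, but Vav-Cre library 2 (42.36) and wild type library 2 (42.31) were nearly equal. In raw reads, Vav-Cre library 1 (1257) lay below wild type libraries 2 (1289) and 3 (1272). The difference Vav-Cre minus Mx1-Cre for Rpl11 was 0.47 ± 0.20 (adjusted p = 0.358, edgeR). Each has 0% unique windows. In the P-stalk, which recruits elongation factors, Rplp0 had a log2 fold change of -0.18 ± 0.16 with the lines averaged, Rplp1 of -0.16 ± 0.24 and Rplp2 of 0.09 ± 0.26. Within wild type alone, Rplp1 ranged from 157 to 265 CPM.

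Some ribosomal proteins have been tied to selective translation or to other functions, and none of their genes described here was called. Rpl38 had 3.07, 3.12 and 4.92 CPM in wild type, 3.24, 2.72 and 3.58 with Mx1-Cre and 2.66 and 5.36 with Vav-Cre. Its log2 fold change was -0.05 ± 0.34, with a 95% interval from -0.80 to 0.70. Rpl10a differed by 0.02 ± 0.19, and Rpl10, which completes the peptidyl transferase centre late in assembly, by -0.23 ± 0.15. Rpsa, also known as the laminin receptor, differed by 0.04 ± 0.19 and Rps27a, made as a fusion with ubiquitin, by -0.09 ± 0.21. Rps12, a beak protein of the small subunit, had 5.81, 8.89 and 9.68 CPM in wild type, 8.99, 5.37 and 11.04 with Mx1-Cre and 10.3 and 11.9 with Vav-Cre. Its log2 fold change was 0.06 ± 0.31 in Mx1-Cre and 0.45 ± 0.34 in Vav-Cre (adjusted p = 0.637, edgeR). Rpl28 and Rpl31, both large-subunit proteins, differed in Vav-Cre by 0.22 ± 0.22 and -0.28 ± 0.29.

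Some paralogs can take the place of their partner in the ribosome, and the pairs were set side by side. Rpl7 had a log2 fold change of -0.15 ± 0.15 with the lines averaged. Its paralog Rpl7l1 had 372, 334 and 301 CPM in wild type, 311, 371 and 290 with Mx1-Cre and 290 and 206 with Vav-Cre. Both Vav-Cre libraries lay below wild type and the log2 fold change there was -0.44 ± 0.18 (adjusted p = 0.331, edgeR). Rps27l, a p53 target, had 49.6, 71.1 and 69.7 CPM in wild type, 64.2, 60.9 and 111 with Mx1-Cre and 73.7 and 59.8 with Vav-Cre, a difference of 0.19 ± 0.22. Its partner Rps27 was counted at only 17 to 38 reads per library and differed by -0.21 ± 0.52. Rpl39 differed by 0.05 ± 0.23, and Rpl39l, a copy best known from testis, had 0 to 68 reads per library with the highest in Mx1-Cre library 3. The pseudogene Rps4y2 had 24.7, 24.4 and 21.3 CPM in wild type, 27.1, 26.8 and 39.4 with Mx1-Cre and 23.7 and 13.9 with Vav-Cre. The difference between lines was -0.73 ± 0.27 (adjusted p = 0.292, edgeR).

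Members were also counted where all libraries of a knockout line lay on the same side of all wild type libraries. In Mx1-Cre, 3 members were higher (Rpl30, Rpl34 and Rps4y2; 10.9% of tested genes) and 3 lower (Rpl21, Rpl22 and Rps6; 14.8%). In Vav-Cre, 5 were higher (Rpl3, Rpl11, Rpl28, Rpl36a and Rps12; 15.6%) and 7 lower (Rpl7a, Rpl7l1, Rpl10, Rpl22l1, Rpl27a, Rpl31 and Rps6; 17.1%). Of the Mx1-Cre genes, Rpl30 and Rpl34 are among the least abundant. Rpl30 had 6 to 12 reads in wild type and 13 to 24 in Mx1-Cre. Rpl34 had 16 to 22 and 21 to 45, so its groups overlapped in raw reads and were apart only after scaling. Raw reads also overlapped for Rpl22 and Rps4y2 in Mx1-Cre and for Rpl11, Rpl28 and Rps12 in Vav-Cre. For Rpl22 and Rpl11 the closest libraries were nearly equal even after scaling. Between the lines, Vav-Cre was higher for 5 members (13.8%) and lower for 4 (12%).

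Calls were also counted among the other genes of the pathway, where 2.65% of all tested genes were called in the averaged comparison. Sets this small cannot show fewer calls than that share. Of 18 other TOP mRNAs, 0 were called in the averaged comparison (median 0.08), and of 11 genes that control TOP translation, 0 were called (median 0.13). In that set Eif4ebp2, a repressor of cap-dependent translation, had 18.2, 16.8 and 18.2 CPM in wild type, 26.1, 26.1 and 29.99 with Mx1-Cre and 23.3 and 32.1 with Vav-Cre. All its knockout libraries lay above wild type, a pattern shown by 4.41% of all tested genes. Its log2 fold change was 0.64 ± 0.16 (adjusted p = 0.0751, edgeR). Larp1 had 252, 200 and 217 CPM in wild type and 254 to 311 in the knockouts, a difference of 0.36 ± 0.12 (adjusted p = 0.154, edgeR). Eif4ebp2 and Larp1 were the 2 of these 11 genes with an unadjusted p under 0.05 (edgeR), as were 16.5% of all tested genes. They are described for that reason. Of the 4 ribosomal proteins outside the naming rule, Gnb2l1, which encodes RACK1, differed by -0.07 ± 0.17.

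Among 11 chaperones and 5S partners, 1 was called and lower, where 2.65% of all tested genes were called in either direction. This was Grwd1, the chaperone of Rpl3, which had 106, 103 and 95.8 CPM in wild type, 80.8, 87.0 and 76.1 with Mx1-Cre and 61.0 and 61.2 with Vav-Cre. Its log2 fold change was -0.53 ± 0.11 (adjusted p = 0.0316, edgeR), with a range of 0.000475 to 0.509 over the alternatives. Of 42 biogenesis factors, 39 lay below 0 in the averaged comparison (median -0.14), as did 7037 of all 14086 tested genes, and 1 was called, Rrp12, which exports pre-ribosomal subunits. It had 53.9, 47.3 and 37.5 CPM in wild type, 34.1, 38.3 and 30.6 with Mx1-Cre and 20.4 and 20.6 with Vav-Cre, a log2 fold change of -0.80 ± 0.16 (adjusted p = 0.0273, edgeR). Its adjusted p ran from 0.000298 to 0.323 over the alternatives. In Vav-Cre 41 of 42 factors lay below 0, as did 7181 of all tested genes. Their median was -0.29, where the ribosomal proteins had a median of -0.01, and in Mx1-Cre the medians were -0.00 and -0.10. The Grwd1 and Rrp12 calls in the averaged comparison were lost when any of the wild type libraries, Mx1-Cre library 1 or either Vav-Cre library was left out, with adjusted p from 0.0531 to 0.163.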

How the data were processed

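The deposited count table gives raw read counts per gene symbol for 8 libraries; the authors' deposited table of CPM, read counts scaled to library depth, holds fewer genes and 78 of the 81 members, and was used for 1 alternative. Libraries were made with a SMARTer ultra-low-input kit and NEBNext reagents without strand information, per the labels' protocols. TopHat, SAMtools, HTSeq, edgeR and the mm9 build are named, per the submitters' processing notes, with no versions; the annotation, and how reads with several placements were treated, was not given in the sources used here. With an unstranded protocol, reads of overlapping genes cannot be told apart.

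Counts were fitted over all 3 groups with edgeR 4.0.16 (TMM scaling, filterByExpr, quasi-likelihood F test) in R 4.3.3. The fit covered 14086 genes, all 81 members passed the filter, and genes below an adjusted p of 0.05 were called. Printed CPM are TMM-scaled, except for the sums and ranges of cell markers, which use library totals, and values are means ± SD or log2 fold changes ± SE, with a prior count of 2 for log2 CPM. Alternatives used DESeq2 1.42.0 and limma 3.58.1, other scalings and filters, a replicate block and each library left out. The fit was tested on simulated data. Uniqueness was computed on GENCODE transcripts of GRCm38, and start sites come from RefSeq.

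Members and gene lists were chosen with earlier results of these data known. Single members were named mainly by rule. The rule took any called member and the 3 highest and 3 lowest levels. It also took the 3 highest and 3 lowest fold changes in each comparison with a mean log2 CPM of at least 3. A list of genes with known special roles or paralogs was included. Rps18, Rps23, Rpl17, Rpl7a and Rpl27a lie outside this rule and were added to the named members followed over the alternatives. Eif4ebp2, Larp1 and Gnb2l1 come from the other gene lists and were not called. The values of 1 further gene are not reported here.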

Additional observations from a re-analysis of the deposited data

Results flagged for a closer look

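Rpl11 lay below the wild type mean in all 3 Mx1-Cre libraries and above it in both Vav-Cre libraries. This pattern was shown by 5.47% of all tested genes. The log2 deviations were -0.31, -0.47 and -0.001 with Mx1-Cre and 0.25 and 0.19 with Vav-Cre. Mx1-Cre library 3 thus stood at the wild type mean and met the rule only by a hair. The difference Vav-Cre minus Mx1-Cre was 0.468 on the log2 scale, with an adjusted p of 0.358 (edgeR).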

How the results depend on the processing

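The count of 0 called members held under most alternatives in each comparison. Calls over all tested genes are given only for the main fit and the replicate block, so the other counts have no background beside them. DESeq2 called 1 in Vav-Cre (Rpl3). limma-voom with quality weights called 1 in the averaged comparison (Rpl22l1) and 4 in Mx1-Cre, among them Rpl22l1, Rps3a and Rps6. The fit to only the groups compared called 1 in Vav-Cre (Rpl3). With a library left out, the count ranged from 0 to 1 in the averaged comparison and from 0 to 1 in Vav-Cre, and stayed at 0 in Mx1-Cre and between the lines. The 1 was Rpl29 in both when Vav-Cre library 2 was left out, and Rpl3 in Vav-Cre when Mx1-Cre library 3 was left out. Family medians ranged over all alternatives from -0.19 to 0.05 (averaged), -0.30 to 0.02 (Mx1-Cre), -0.15 to 0.11 (Vav-Cre) and -0.04 to 0.29 (between lines), all moves being smaller than the SD of the family median over the wild type libraries. The mean knockout minus wild type share of reads was -0.197 percentage points and ranged from -0.377 to -0.0918.

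Settings chosen after seeing the data were scaling to the ribosomal protein genes, scaling by library totals, a unique-window subset and a joint removal. Either scaling called 0 members. The subset kept genes with 20% or more unique windows from the main fit without a refit, so its 0 calls were fixed in advance. Leaving out Mx1-Cre 1 and Vav-Cre 1 together left a single Vav-Cre library and gave an averaged family median of -0.004. Over 152 values of named members and 3334 alternatives, 3076 kept sign and call, 249 changed sign without being called on either side and 9 became called. Those alternatives include a looser adjusted p threshold of 0.1 and the unique-window subset, which reuse the main fit. Their values were identical to the main ones and could only count as kept. Deviations of libraries with the same replicate number correlated between -0.07 and 0.13, so the numbers were not taken to pair the samples. With the replicate block 0 members were called in each comparison, and calls over all genes went from 373 to 218, 351 to 235, 72 to 20 and 24 to 9. With the block the averaged comparison gave Grwd1 an adjusted p of 0.0655, so its call was lost. Genes with few unique windows or under 50 reads per library, such as Rpl30 and Rpl34, are limited by placement and depth.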
